A study of Mus musculus with 6 samples.

Results

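Cilia and laterality genes were followed in motoneuron pools captured from either side of the cervical spinal cord of the mouse. The group holds 40 genes: subunits of the intraflagellar transport and BBSome complexes, Rfx transcription factors and genes of motile cilia. Genes of laterality and flow sensing and the centriole gene Sass6 complete it. Every probe set of the array that the annotation gives to exactly 1 of these symbols was taken, which yielded 64 probe sets for 38 of the 40 genes. Arl13b, a small GTPase of the ciliary membrane, and Pkd2, a cation channel of the flow-sensing cilium, had no probe set under their symbols. The whole annotation names 18193 genes on this array.

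A primary cilium is a single immotile projection that most cells carry and that serves as a signalling antenna, among others for Sonic hedgehog in the neural tube. It is built by intraflagellar transport: the IFT-B complex carries cargo towards the tip with kinesin, the IFT-A complex returns it with the motor dynein-2, and the BBSome moves membrane proteins in and out. Motile cilia add dynein arms and axonemal rulers under the control of Foxj1, and in the embryonic node their beating drives a leftward flow that sets the left-right axis long before the spinal cord is patterned. Rfx factors bind a DNA element termed the X-box and control many genes of both kinds of cilium.

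All pools came from HB9::GFP transgenic embryos at E11.5, in which the motoneuron promoter HB9 (Mnx1) drives green fluorescent protein. In each of 3 embryos of 1 litter, the GFP+ region was taken by laser capture from the left and from the right side of the same 12 µm sections, so that the design holds 3 left and 3 right pools on 6 Affymetrix arrays. The question put to these pools was which RNAs differ between the sides. GFP chose a region and not single cells, and no group without the transgene was measured.

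Signals are MAS5 intensities on a linear scale, brought to a trimmed mean of 500 on every array, with medians from 99.9 to 118. Motoneuron markers were present in every pool: Mnx1 read between 3520 and 5219 and Isl1 between 3771 and 5991 over the 6 pools. The summed signal of 9 motoneuron markers was 17892 to 24135 on the left and 17578 to 23924 on the right. Markers of other cells were also read in every pool. The summed signal of 8 progenitor markers was 8711 to 15485. That of 4 erythroid markers, mostly Hbb-y, was 20238, 24715 and 37423 in the left pools and 36384, 22512 and 32232 in the right pools. The right pool of embryo 1 stood apart. Its summed signal of 10 markers of mesenchyme and sclerotome was 14935, against 936 to 2143 in the other pools. Much of this was Col1a2 (8264) and Col3a1 (3349), whereas Pax1 and Pax9 did not exceed 106 and 94.2 in any pool. The summed signal of 5 skeletal muscle markers was 3838 in the right pool of embryo 1, against 130 to 318 in the others. The summed signal of 5 dividing-cell markers was also highest there, at 6000. It was 3194 in the left pool of the same embryo and 3362 to 5037 in the other pools. Mki67 (3480) and Cdk1 were highest there, whereas Top2a, Ccna2 and Plk1 were highest in other pools. In tissue captured as a region, more cells of a type and more RNA per cell cannot be told apart.

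Promoters of the group are described first, since Rfx factors act through short DNA elements. Among 32851 promoters of the RefSeq table (GRCm38.p6, 250 bases before to 50 bases after the start), 12.5% held GTTGCC on either strand. Of 37 promoters of 36 genes of the group, 14 held it (37.8%). Promoters of the group were also richer in G and C, with a median of 58.3% against 52.7% overall. The longer GTTNCCATG, which can overlap GTTGCC, was found in 1.93% of all promoters and in 1 of the group, that of Dnah5, and the X-box consensus in 0.962% and in 0 of the group. A match describes these letters and is no evidence of binding. Ift80, Ift81, Ift122 and Foxj1 are not in the promoter table.

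Stretches around GTTGCC, with the match in capitals, are given for Wdr35, Bbs1, Bbs5, Bbs7, Ift57 and Ift140, whose left and right signals are described by name, and for Rfx3, itself an X-box binding factor. The promoters of Invs, Sass6 and Ccdc40, set apart by side further below along with Bbs1 and Wdr35, held no GTTGCC. Those of Ift27, Ift88, Ift172, Dync2h1, Rfx1, Rfx2 and Arl13b held it and are not shown. A relation between the match and the side was not tested. The stretches are written 5′ to 3′ on the strand of the gene.
Wdr35, chr12:8974029-8974050, plus strand, 40 bases after the start: tgggcggcggtgGTTGCCaggc
Bbs1, chr19:4906609-4906638, minus strand, 1 base after the start: atggctgagctgGTTGCCaaggcgacgcct
Bbs5, chr2:69647201-69647220, plus strand, 42 bases after the start: caaagccggcgcGTTGCCtt
Bbs7, chr3:36613493-36613522, minus strand, 121 bases before the start: gaatgcgccccgGTTGCCttggaaaccggc
Ift57, chr16:49699195-49699224, plus strand, 87 bases before the start: gaggcgggtctgGTTGCCgtggtgaccggc
Ift140, chr17:25015965-25015994, plus strand, 109 bases before the start, match on the opposite strand: gcgtgttgtgacGGCAACctcgcgcccttg
Rfx3, chr19:28011118-28011147, minus strand, 31 bases after the start: gttatagcaaccGTTGCCttgtgaatcaag

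Genes of the primary cilium and genes of motile cilia differed in how many could be measured. The methods set a limit of 200 on the signal, and a probe set was tested here if its highest signal over the 6 pools reached it. Of 24 primary cilium genes with a probe set, 24 reached the limit in at least 1 pool and 20 reached it in all 6 (83.3%). Of 5 motile cilium genes, 1 reached it in any pool and 0 in all 6. For comparison, 10539 of the 18193 genes named on the array reached it in at least 1 pool. The share of all genes that reached it in all 6 pools is not given here. At a limit of 100 in place of 200, 4 motile genes were counted, and at a limit of 500 there were 0 motile and 18 primary genes. Probe sets bind RNA with different strength, so a signal places a gene above or below the limit and does not rank genes against each other, and the difference between the classes has no test.

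**Figure D1:**
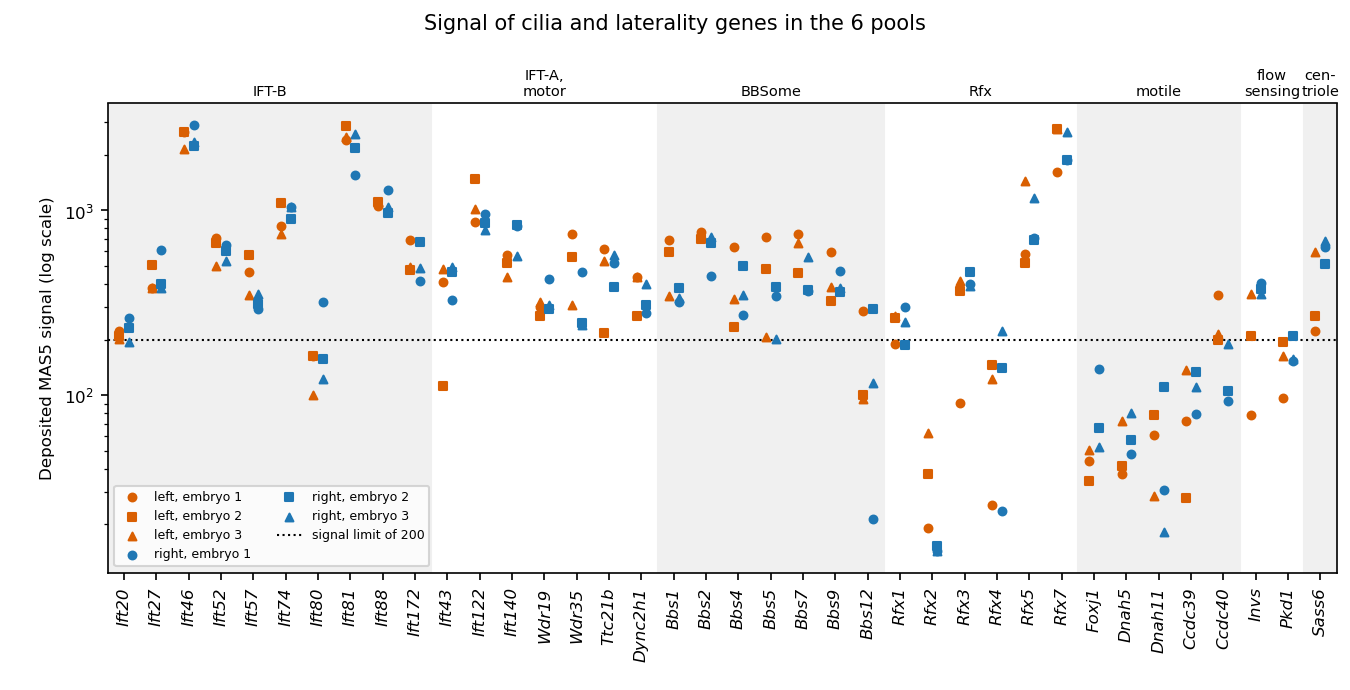
Deposited MAS5 signal (log scale) of the brightest probe set of each of the 38 genes, by role, with 1 symbol for each left (orange) and right (blue) pool and a dotted line at the limit of 200. Of the 5 motile genes, Ccdc40 alone touches the line, whereas 20 of 24 genes of the primary cilium lie above it in all 6 pools.

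The IFT-B complex was represented by 10 genes. All 10 reached the limit and 8 did so in all 6 pools, with mean signals from 171 (Ift80) to 2497 (Ift46). Ift46 and Ift88, core subunits without which cilia do not form, stayed far above the limit: Ift46 lay between 2150 and 2908 and Ift88 between 974 and 1291. Ift20, which also ferries proteins from the Golgi to the cilium, lay close to the limit, at 223, 208 and 202 in the left pools of embryos 1, 2 and 3 and at 263, 233 and 194 in the right pools. Ift80 reached 200 only in the right pool of embryo 1, at 320.

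IFT-A and its motor were measured by 7 genes, of which 6 reached the limit in all pools. Mean signals ran from 320 (Wdr19, which encodes IFT144) to 995 (Ift122). Dync2h1, the heavy chain of dynein-2, read 437, 269 and 435 in the left pools and 278, 308 and 401 in the right pools, with overlap of the sides. Ift43 was at 329 or more in 5 pools and at 113 in the left pool of embryo 2. Sass6, a protein of the cartwheel on which new centrioles are built, stayed above the limit in all 6 pools in its brightest probe set.

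Most BBSome genes were above the limit on both sides. Bbs1, Bbs2, Bbs4, Bbs5, Bbs7 and Bbs9, all subunits of the complex, had mean signals from 387 to 674 and stayed above the limit in every pool. Bbs12, a chaperonin-like protein needed to assemble the BBSome, did not. It read 285, 100 and 95.9 in the left pools and 21.4, 291 and 117 in the right pools, which put 2 pools of opposite sides above the limit.

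The Rfx factors were unequal. Rfx5, best known as an activator of major histocompatibility complex class II genes, and Rfx7 reached the limit in all 6 pools. Rfx7 read 1625, 2771 and 2770 in the left pools and 1878, 1873 and 2652 in the right pools. Rfx5 read 584, 520 and 1446 in the left pools and 713, 695 and 1165 in the right pools, with the highest values of both sides in embryo 3.

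Rfx1 and Rfx3 lay nearer to the limit. Rfx1 was at 189, 261 and 268 in the left pools and at 301, 187 and 249 in the right pools. Rfx3, a regulator of nodal cilia, was at 91.0, 367 and 416 in the left pools and at 402, 465 and 392 in the right pools, so that the left pool of embryo 1 was the only one below 200. Rfx4, a regulator of neural tube patterning, was at 25.5, 145 and 122 in the left pools and at 23.8, 140 and 223 in the right pools. Rfx2, which acts with Rfx3 in ciliated cells, did not reach the limit: its 4 probe sets did not exceed 62.8 in any pool.

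Of the motile class, Foxj1, the transcription factor that starts the motile programme, read 44.2, 34.1 and 50.7 in the left pools and 139, 66.7 and 52.6 in the right pools. Dnah5 and Dnah11, heavy chains of the outer dynein arm, stayed at or below 79.8 and 110. Ccdc39, which together with Ccdc40 forms the ruler that sets the spacing along the axoneme, was at 137 or lower in each of its 3 probe sets. Ccdc40 read 347, 200 and 215 in the left pools and 92.7, 105 and 190 in the right pools, and entered the test through its left pools only. The floor plate bears motile cilia in some species, and the markers of that region did not move together in these pools. Shh was at 1364, 4.81 and 263 in the left pools and at 397, 480 and 284 in the right pools. Ntn1 was lowest in the left pool of embryo 1, where Shh was highest, at 110 against 321 to 497 in the other pools. Spon1 lay between 176 and 695. Foxa2 did not exceed 94.5 in any pool, and Lmx1b was also below the limit. The part of the floor plate in the motile signals was not tested.

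The laterality and flow-sensing genes with a probe set were Invs (inversin), whose loss reverses the body axis in mice, and Pkd1, a receptor partner of Pkd2. Invs read 78.0, 210 and 351 in the left pools and 406, 377 and 355 in the right pools. Pkd1 was at 96.8, 193 and 163 in the left pools and at 153, 209 and 158 in the right pools, above the limit in 1 pool.

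Other genes of the same systems followed this division. Of 40 further genes of the primary cilium, transition zone and transport with a probe set, 35 were tested and 23 reached the limit in all 6 pools. Among them Kif3a, a motor subunit of anterograde transport, lay between 3637 and 4638. Of 17 further motile genes, 3 were tested (Dnah9, Rsph9 and Drc1, each above the limit in 1 pool) and 0 reached it in all pools. Of 9 further laterality genes, Nme7, Bicc1 and Acvr2b were tested. The nodal signals themselves were below the limit throughout: Nodal did not exceed 113, Lefty1 73.5, Lefty2 33.1, the co-receptor Cfc1 189 and the antagonist Dand5 156. Of 10 further centriole genes 7 were tested, and of 4 further genes of the Rfx family and its partners 3 were. None of these 5 lists held a gene whose brightest probe set met the fold rule described next, although another probe set of Bbip1, a BBSome subunit, and of Acvr2b, an activin receptor, met it on the right.

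No probe set of the group passed the moderated test of the sides. With limma and adjustment over the 21853 probe sets tested on the array, 0 of 46 tested probe sets of the group passed an adjusted p of 0.05, as did 0 of all probe sets (0%), and the smallest adjusted p in the group was 0.974. Without adjustment, p was under 0.05 for 4 of the 46 (8.7%), against 3.4% of all probe sets. The 46 probe sets stand for 33 genes, of 10539 tested on the array. With 3 embryos, an exact sign-flip test of a single gene cannot go below p = 0.25.

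By the fold rule of the methods, under which the 3 embryos must share a sign, while both the mean and 2 or more of the log2 ratios must exceed 0.58 in size, 5 probe sets were set apart. Those of Invs and Sass6 were higher on the right (2 of 46, 4.35%, against 2.4% of all tested probe sets), and those of Bbs1, Ccdc40 and Wdr35 were higher on the left (3 of 46, 6.52%, against 1.55%). Ccdc40 was tested only because its left pools reached the limit, so its place among these says little, and with a limit of 200 on the mean signal it was not tested and 2 probe sets (Bbs1 and Wdr35) remained on the left. Left and right pools did not overlap for 2 of 46 probe sets, those of Ccdc40 and Invs, against 5.43% of all. All 5 rested on embryos 1 and 2, and 0 probe sets of the group met the rule on either side without either of these embryos. Few of all tested probe sets met it then: 0.915% on the right and 0.906% on the left without embryo 1. Without embryo 2 the shares were 1.03% and 0.805%. When a change beyond 1.5-fold was asked of all 3 embryos, 0 of the group met it, against 0.384% and 0.224% of all. Without embryo 3 the counts were 3 on the right (Sass6 and both tested probe sets of Invs; 6.52%, against 4.9% of all) and 4 on the left (Bbs1, Ccdc40, Wdr35 and Ift57; 8.7%, against 2.94% of all). Markers of other cells differed between the sides in the same 2 embryos. For roof plate and dorsal progenitors, the summed signal of 5 markers was 322, 319 and 522 in the left pools of embryos 1, 2 and 3. In the right pools it was 2190, 1124 and 661. Much of the right sum was Zic1, at 1745 and 693 in embryos 1 and 2. Zic1 and Olig3 met the fold rule on the right. Msx1, also tested, was close to equal in these embryos, with log2 ratios of 0.04 and -0.07, and Lmx1a and Wnt1 stayed below the limit. The summed signal of the mesenchyme markers was higher on the right in embryo 1 (14935 against 1865) and in embryo 2 (2143 against 936). It was similar in embryo 3 (1773 against 1706). Much of the mesenchyme sum was Col1a2, at 8264 against 882 in embryo 1 and 946 against 292 in embryo 2. Pax9, below the limit, was lower on the right in all 3 embryos. Col1a1 (102 against 106) and Pax1, the latter below the limit, were not higher on the right in embryo 2. The sums of muscle and of dividing-cell markers were higher on the right in embryo 1. The part of these cells in the ratios was not tested.

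**Figure D2:**
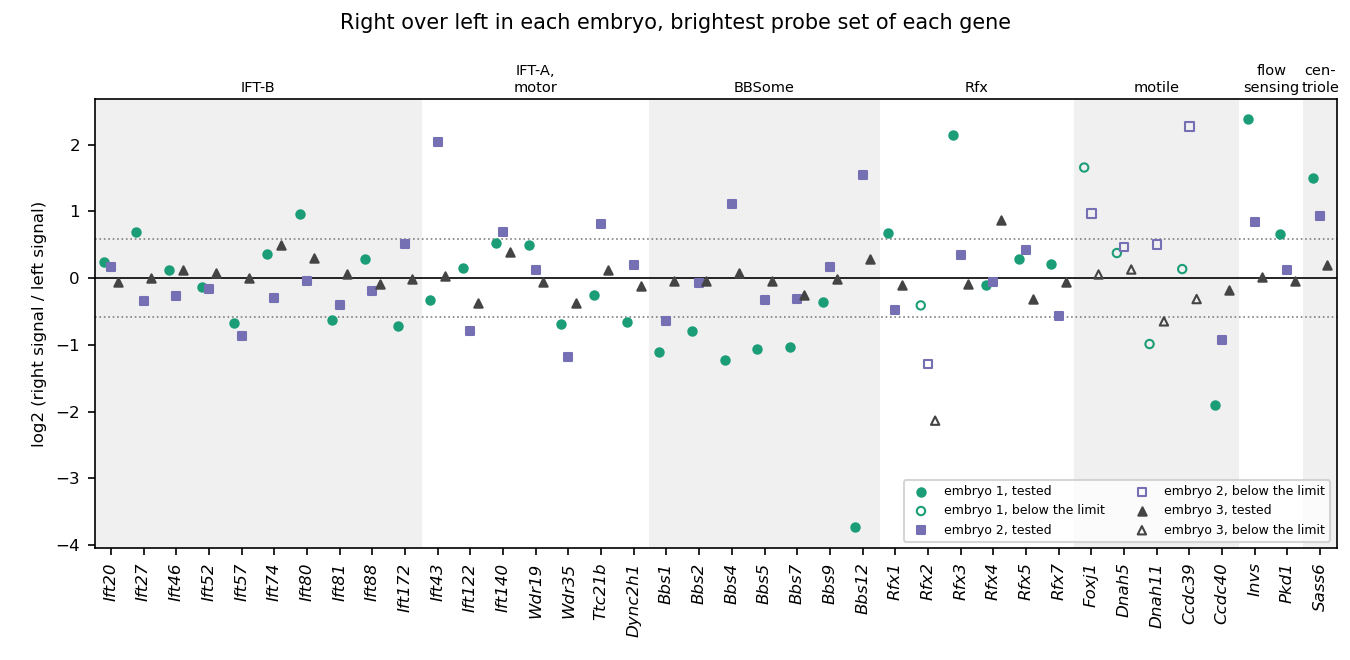
Log2 ratio of right to left signal in embryos 1 (circles), 2 (squares) and 3 (triangles) for the brightest probe set of each gene; open symbols mark genes below the limit of 200, and dotted lines lie at 0.58 in either direction. The ratios of embryo 3 lie closest to 0, with a median size of 0.087 over the 33 tested genes against 0.66 in embryo 1, and all 7 BBSome genes lie below 0 in embryo 1.

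Wdr35, which encodes the IFT-A subunit IFT121, read 748, 560 and 309 in the left pools and 466, 246 and 239 in the right pools. Each right pool was below the left pool of its embryo, although the sides overlapped across embryos. The log2 ratios were -0.68, -1.18 and -0.37, with a mean of -0.75 ± 0.41 (SD, n = 3 embryos). Limma gave a moderated 95% interval of -1.35 to -0.14, an unadjusted p of 0.0216 and an adjusted p of 0.974. A second probe set, at 270, 403 and 178 in the left pools and 190, 130 and 164 in the right pools, gave the same mean of -0.75 with an SD of 0.79.

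Bbs1, the subunit through which the BBSome is recruited by the GTPase Arl6, read 691, 597 and 345 in the left pools and 322, 381 and 335 in the right pools. Its log2 ratios of -1.10, -0.65 and -0.05 averaged -0.60 ± 0.53 (SD, n = 3 embryos), and limma gave an unadjusted p of 0.0592 and an adjusted p of 0.974. The mean lies just past 0.58, and with 50 added to each signal or with the arrays scaled to the same median Bbs1 no longer met the rule. The right pools lay between 322 and 381, and the left pools spread more widely.

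Ccdc40 had log2 ratios of -1.90, -0.93 and -0.18, with a mean of -1.0 ± 0.87 (SD, n = 3 embryos) and, in limma, an unadjusted p of 0.0521 and an adjusted p of 0.974. Its 3 right pools all lay below the limit, so the size of the difference rests on signals of 92.7 to 190. Its partner Ccdc39 did not share this pattern: its brightest probe set gave 0.14, 2.27 and -0.31 and was below the limit in every pool.

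Invs was higher on the right in embryos 1 and 2 and close to equal in embryo 3, with log2 ratios of 2.38, 0.84 and 0.02 and a mean of 1.08 ± 1.20 (SD, n = 3 embryos). The 95% interval of limma, which also draws on the spread of other probe sets, ran from 0.07 to 2.09. The unadjusted p of limma was 0.0386 and the adjusted p 0.974. The right pools lay close together at 355 to 406, and the left pool of embryo 1 was under the limit at 78.0. A second tested probe set gave 1.49, 3.63 and -0.23 from signals of which 1 pool reached the limit.

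Sass6 had the smallest unadjusted p for side in the group. Its brightest probe set read 223, 269 and 598 in the left pools and 631, 514 and 685 in the right pools. The log2 ratios were 1.5, 0.93 and 0.20, with a mean of 0.88 ± 0.66 (SD, n = 3 embryos). Limma gave a moderated 95% interval of 0.21 to 1.54, an unadjusted p of 0.0156 and an adjusted p of 0.974. A second probe set, at 178, 401 and 640 in the left pools and 272, 387 and 578 in the right pools, gave 0.61, -0.05 and -0.15, which was a difference in embryo 1 alone. Sass6 is made in dividing cells. The summed signal of their markers was higher on the right in embryo 1 (6000 against 3194) and lower on the right in embryo 2 (3362 against 3945). The markers did not all move together, since Ccna2 and Plk1 were higher on the right in embryo 2. The part of dividing cells was not tested.

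Ift140, an IFT-A subunit, had similar ratios in the 3 embryos. It read 572, 520 and 435 in the left pools and 825, 840 and 569 in the right pools, higher on the right in each embryo by 0.53, 0.69 and 0.39 on the log2 scale. The mean of 0.54 ± 0.15 (SD, n = 3 embryos) stayed below 0.58, so that it did not meet the fold rule, and limma gave an unadjusted p of 0.0318 and an adjusted p of 0.974. Among the IFT-A genes, Ift140 and Wdr35 kept opposite signs in all 3 embryos. The median over the 7 genes of IFT-A and its motor was 0.19, but its sign was not stable: it was -0.020 when all tested probe sets of a gene were averaged, -0.057 at a limit of 500 and -0.12 without embryo 2.

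**Figure D3:**
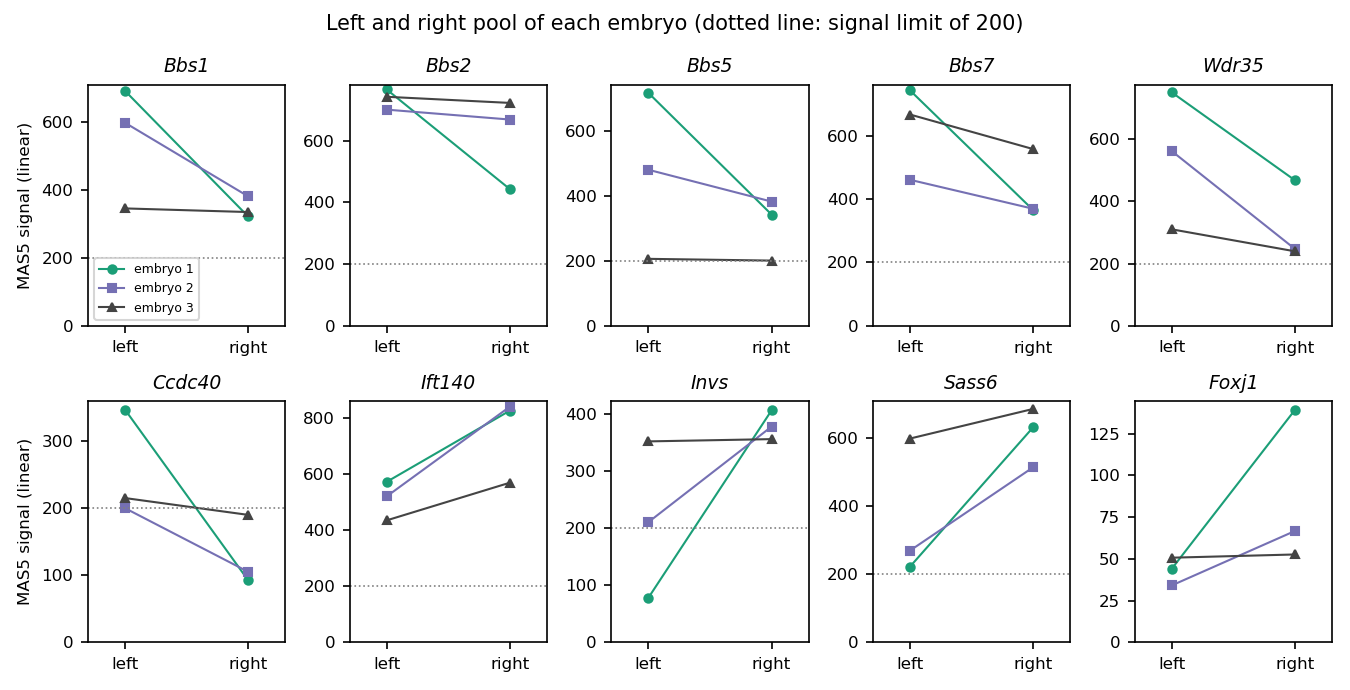
MAS5 signal (linear scale) of the left and right pool of embryos 1, 2 and 3 for 10 genes, each line joining the 2 pools of an embryo, with a dotted line at 200. The lines of Bbs1, Bbs5 and Ccdc40 fall steeply in embryo 1 and are close to level in embryo 3, those of Wdr35 fall and those of Ift140 rise in all 3 embryos, and those of Foxj1 lie below 200 throughout.

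All 7 BBSome genes of the group read lower on the right than on the left in embryo 1, with a median log2 ratio of -1.07, whereas 4 of 7 were lower in embryo 2 (median -0.068) and 5 of 7 in embryo 3 (median -0.038). Over all genes tested, 46.9%, 49.3% and 50.4% were lower on the right in embryos 1, 2 and 3, with medians of 0.042, 0.0062 and -0.0017. Bbs5, a subunit that binds membrane lipids, read 718, 481 and 207 in the left pools and 343, 383 and 201 in the right pools. Bbs7 read 742, 461 and 666 in the left pools and 365, 369 and 557 in the right pools. Bbs2 read 766, 701 and 742 in the left pools and 443, 669 and 722 in the right pools.

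For Bbs1, Bbs2, Bbs5 and Bbs7 the right pool was the lower in all 3 embryos (4 of 7 BBSome genes, against 10.8% of all genes tested with that order), but the difference was small in embryo 3, where it reached -0.26 for Bbs7 and at most -0.05 for the other 3. Bbs4 went to the left in embryo 1 (-1.23) and to the right in embryo 2 (1.11), and its other 2 tested probe sets gave the same order in these embryos. Bbs12 did likewise, at -3.73 and 1.54, from signals that were mostly under the limit. The median of the mean ratios over the 7 genes was -0.48, and without embryo 1 it was -0.053. Under every alternative tried it stayed below 0. Of 2 further BBSome subunits outside the group, Bbip1 gave log2 ratios of 0.11, -0.38 and 0.34 and Ttc8 of -0.54, 1.05 and 0.11, so that Bbip1 was not lower on the right in embryo 1. The left pool of embryo 1 held the highest of the 6 signals for Bbs1, Bbs2, Bbs4, Bbs5, Bbs7 and Bbs9, and the right pool of that embryo held the lowest for Bbs1, Bbs2, Bbs7 and Bbs12. Both pools were unusual in markers of other cells. The left pool had the lowest summed signal of 8 progenitor markers (8711, against 10752 to 15485 in the other pools). Sox2 (26.3), Nes, Pax6, Olig2 and Fabp7 were lowest there, whereas Vim, Hes5 and Nkx6-1 were lowest in other pools. The right pool had the raised sums of mesenchyme and muscle markers given above. The part of these cells was not tested.

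The ratios of the IFT-B genes varied between embryos. The median log2 ratio over the 10 genes was -0.0021, with 4, 8 and 3 genes lower on the right in embryos 1, 2 and 3, and 0 of 10 kept 1 sign in all 3 embryos. Ift57, a peripheral subunit, read 463, 572 and 350 in the left pools and 291, 312 and 352 in the right pools, which gave -0.67, -0.87 and 0.01. Ift81, a tubulin-binding subunit, gave -0.63, -0.40 and 0.06, and its second tested probe set gave -0.63, -0.42 and 0.01. Ift46, at -0.0034 ± 0.22 (SD, n = 3 embryos), and Ift88, at 0.28, -0.19 and -0.09, were close to equal.

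The 5 tested Rfx genes had a median log2 ratio of 0.13, and 0 of them kept 1 sign in all 3 embryos. Rfx3 had the largest mean, 0.80 ± 1.18 (SD, n = 3 embryos), from log2 ratios of 2.14, 0.34 and -0.09. The moderated 95% interval of limma for Rfx3 was -0.16 to 1.76. Its second tested probe set, at 325, 160 and 386 in the left pools and 178, 469 and 382 in the right pools, gave -0.87, 1.55 and -0.01, so that embryo 1 turned from right to left with the choice of probe set. Foxj1, below the limit and not tested, had log2 ratios of 1.66, 0.97 and 0.05 from signals of 34.1 to 139. Its left and right pools did not overlap. The same held for other probe sets below the limit, the brightest of Rfx2 (lower on the right) and a second of Rfx4 (higher on the right). The share of all probe sets below the limit without overlap is not given here, so the order of the Foxj1 pools says little.

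Over the 33 tested genes, the median log2 ratio was -0.0034, beside 0.013 over all genes tested. The median over 24 primary cilium genes was -0.067. The embryos differed in the size of the ratios: the median size of the log2 ratio was 0.66, 0.40 and 0.087 in embryos 1, 2 and 3 over the group, and 0.365, 0.301 and 0.127 over all genes. The same sign in all 3 embryos was seen for 6 genes lower on the right (18.2%, against 10.8% of all genes) and for 3 genes higher on the right (9.09%, against 12.5%).

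For 12 genes, at least 2 probe sets were tested, which shows how far a ratio depends on the piece of the transcript that is read. The probe sets gave the same sign in all 3 embryos for Ift27, Ift81, Ift122, Wdr35 and Ttc21b, and in 0 embryos for Ift80 and Rfx7. In embryo 1 the probe sets of Rfx3 lay 3.01 apart on the log2 scale and those of Ift80 2.78 apart, with opposite signs. Those of Ift81 lay within 0.0471 of each other in every embryo.

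**Figure D4:**
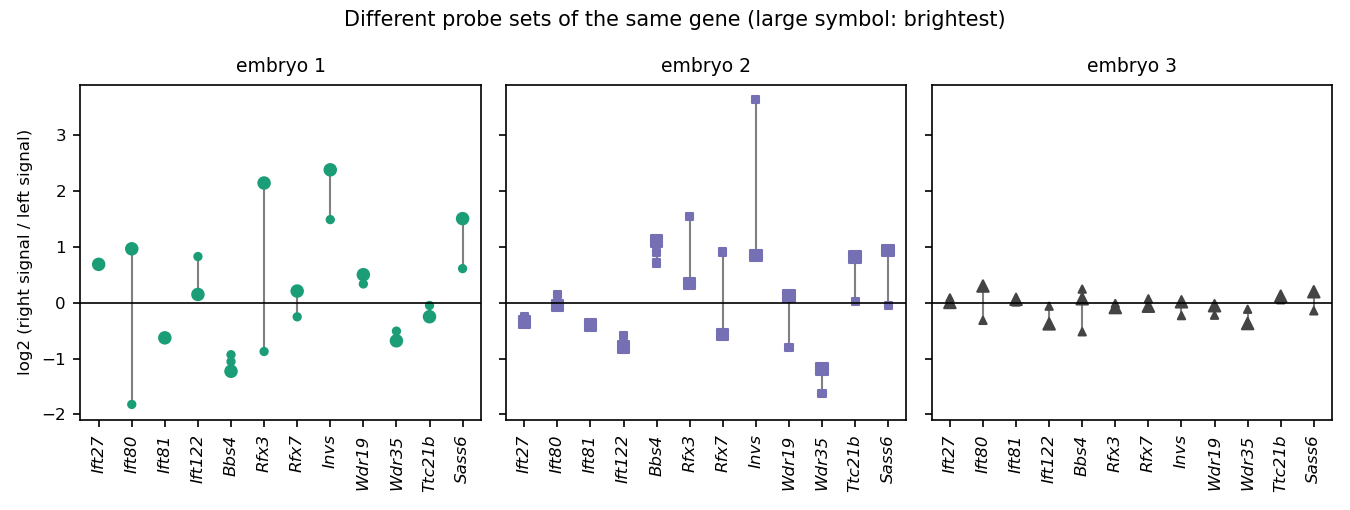
Log2 ratio of right to left for each tested probe set of the 12 genes with at least 2, in each of the 3 embryos, with the probe sets of a gene joined by a line and the brightest drawn larger. The lines are longest in embryos 1 and 2 (3.01 for Rfx3 in embryo 1, 2.79 for Invs in embryo 2) and short in embryo 3.

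Differences between the littermates were also looked at, since the pools of an embryo share it. Both captures came from the same sections of 1 animal, so a test of embryo cannot separate the animal from its sections or capture. Motoneuron marker sums of the left pools, by embryo, were 24135, 22247 and 17892. Those of the right pools were 23924, 19269 and 17578. Progenitor sums were lower in both pools of embryo 1 (8711 and 10752) than elsewhere (14348 to 15485). Single markers did not all follow these sums. The part of cell content in the embryo differences was not tested. By the F test of the embryo terms in the same limma fit, 0 of 46 probe sets of the group passed an adjusted p of 0.05, against 0.27% of all tested probe sets. Without adjustment, p was under 0.05 for 7 of the 46 (15.2%, against 15.3% of all). The smallest was that of Rfx5, whose mean signals in embryos 1, 2 and 3 were 648, 607 and 1305 (unadjusted p = 0.00475, adjusted p = 0.148 by limma). It was followed by the second probe set of Sass6, at means of 225, 394 and 609 (unadjusted p = 0.00594, adjusted p = 0.156 by limma). Bbs5 had means of 531, 432 and 204, Rfx4 of 24.6, 142 and 173 and Wdr35 of 607, 403 and 274, with adjusted p by limma of 0.21, 0.228 and 0.251. When embryo 1 was left out, the remaining 2 embryos differed in Rfx5 (1 call, 2.17%, against 3.61% of all probe sets), and when embryo 2 was left out, in Rfx5, Rfx7 and Sass6 (3 calls, 6.52%, against 3.87% of all).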

How the data were processed

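Biotin-labelled, amplified RNA of the laser-captured pools was read on Affymetrix mouse arrays. MAS5 signals were computed by the authors in Affymetrix Expression Console on a linear scale and deposited as such intensities (tool versions are not given in the sources used here). Detection calls were not analysed here, so the filter of the methods on present calls was not applied. Of 45101 probe sets, 64 controls were left out; the annotation gives 1 gene for 34945, several for 932 and none for 9160. Signals were turned to log2 with no added constant, and 21853 probe sets whose highest signal reached 200 entered a fit in limma 3.58.1 under R 4.3.3 (terms for side and embryo, trend on mean signal, Benjamini-Hochberg adjustment over all of them). Where a gene had several probe sets, the brightest by mean signal stood for it. The number of arrays limits the precision, and p-values measure the spread between these 3 littermates.

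Left and right pools were paired because they come from the same sections of 1 embryo; deviations from the mean of each side correlated at 0.241, 0.215 and 0.495 within embryos. The fit was tested on simulated data. The members and the lists of other cilium genes and markers were chosen with earlier results of these data known. Named with the value in every pool were the Rfx, motile, flow-sensing, Dync2h1 and Sass6 probe sets, any that passed the fold rule, and the 5 with the smallest p for side and for embryo; Bbs2, Bbs7, Bbs12, Ift20 and Ift57 were added after their values were seen. Promoter stretches (1 match per gene) were chosen likewise and read from the RefSeq table with Python 3.11.15. Alternatives were quantile and median scaling, 50 added to each signal, other signal limits, each embryo left out, no embryo term, no trend, stricter fold limits and other choices among probe sets.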

Additional observations from a re-analysis of the deposited data

How the results depend on the processing

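The moderated test of side gave 0 calls among the probe sets of the group under every alternative tried, including the fit with no replicate block (no term for embryo, 0 calls; unadjusted p under 0.05 for 1 probe set). No other call was tried without the pairing. By the fold rule, a change beyond 1.5-fold in all 3 embryos left 0 probe sets on the right and 0 on the left, against 0.384% and 0.224% of all. A 2-fold limit also left 0 and 0, against 0.874% and 0.435%. With no signal limit there were 4 on the right (Foxj1, Invs, Rfx4 and Sass6, 6.25% of 64, against 6.23% of all probe sets). On the left there were then 4 (Bbs1, Ccdc40, Rfx2 and Wdr35, against 3.77%). A limit of 500 gave 1 on the right (Sass6, 4% of 25, against 0.968%). Leaving out 1 embryo at a time gave 0 to 3 on the right and 0 to 4 on the left. The median log2 ratio over the group was -0.090 with median scaling, where that of all genes was -0.073 in place of 0.013. It was -0.069 at a limit of 500 and -0.070 to 0.036 with 1 embryo left out. The count of motile genes at the limit was 0 when all 6 pools had to reach it, 4 at a limit of 100 and 0 at a limit of 500. The test between embryos gave 0 to 3 calls with 1 embryo left out, and 0 under the other alternatives. A further 47 values of these comparisons and 91 of single genes and roles moved by less than the SD over embryos or, for counts, by at most 1.5 times, although medians near 0 (the group, IFT-B, and IFT-A with its motor) changed sign among them. The cause of the changes was not tested. Signals under 200 limit what can be read for the motile genes, Rfx2, Rfx4, Pkd1 and Bbs12.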
